A study of Rattus norvegicus with 24 samples.

Results

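Heat shock proteins and DnaJ proteins are the molecular chaperones that fold, hold and refold other proteins, and they were followed here in normal colon and colonic tumours of Pirc rats. Members were the genes named Hspa, Hspb, Hspd1, Hspe1, Hsph1, Hsp90 or Dnaja, Dnajb and Dnajc with a number, taken from the array's own gene names or from the current symbol of a probe's accession. The names matched 99 probes, of which 1 was set aside because only its older name contains the pattern (Hspa5bp1, now Tmem132a). The other 98 probes stood for 65 of the 16056 named genes on the array. All rats were male (ACIxF344)F1-Pirc animals of genotype Apc-Pirc/+, which carry a mutation in 1 copy of the tumour suppressor Apc in every cell and form colonic tumours. In 5 rats (numbers 1, 5, 6, 7 and 9) the drinking water held 4% dextran sodium sulfate (DSS, molecular weight 500000), which injures the lining of the colon, on days 40 to 47 and again on days 54 to 61 of life. The other 5 rats (numbers 2, 3, 4, 8 and 10) were untreated. Normal distal colon and tumour were taken from every rat at 97 days, so each of the 4 groups (normal or tumour, untreated or DSS) held 5 rats, and DSS had ended weeks before sampling. The tissues were bulk samples, in which fewer cells of a type and less RNA per cell cannot be told apart.

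Chaperones work in teams. HSP70 proteins bind exposed stretches of unfolded chains and release them in a cycle driven by ATP, DnaJ proteins deliver the clients and start ATP hydrolysis, and HSP110 proteins such as Hsph1 reset the cycle by exchanging the nucleotide. HSP90 proteins act later, on nearly folded clients that include many kinases and receptors, small heat shock proteins hold unfolding chains without ATP, and Hspd1 with its lid Hspe1 forms the folding cage of mitochondria. Several cytosolic members, and Hspd1 and Hspe1, are classical targets of the transcription factor Hsf1. Members of the endoplasmic reticulum (ER), led by Hspa5 (BiP), are induced by the unfolded protein response.

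Each value below is the log2 ratio of a sample to pooled colon RNA of wild-type rats that was hybridized with it, so 0 is the level of the pool and 1 is a doubling. Of the 24 arrays, 21 had 47.6% to 70.5% of probes well above background in the sample channel, and the remaining 3 (a first array of normal colon of rat 2, normal colon of rat 4 and tumour of rat 9) had 86.9% to 95.2%. By their slide identifiers, the arrays came from 2 slide lots, each with every group. Lot 1 held 3 rats per group (rats 1 to 6) and lot 2 held 2 (rats 7 to 10). Lot 2 was scanned on the last of 3 scan days and lot 1 on the earlier ones. A difference between lots therefore cannot be told apart from one between scan days. Markers of absorptive colonocytes were lower in tumours (4 of 8 called in untreated and 4 of 8 in DSS rats), as were goblet cell markers (5 of 6 called in each). In normal colon of DSS rats, all 10 measured markers of squamous epithelium were higher than in untreated normal colon, with a median of 2.89. That list averaged 2.78 to 4.39 in the 5 normal samples of DSS rats, -0.20 to 1.81 in normal colon of untreated rats and 0.01 to 0.53 in tumours, the 1.81 being normal colon of rat 8. Neutrophil markers averaged 0.91 to 1.34 in normal colon of DSS rats against -0.002 to 0.39 in that of untreated rats. Of the 7 markers 2 were called higher there, and the median change over the list was only 0.32. In tumours of untreated rats the list averaged 0.90 to 1.87. There 5 of 7 were called higher than in normal colon of the same rats, with a median change of 0.47. Fibroblast markers averaged -2.15 to -1.04 in normal colon and -1.25 to 0.16 in tumours of untreated rats, with 5 of 10 called higher, as were 3 of 11 leukocyte and 2 of 9 proliferation markers. The part of these cell types in the member values below was not tested.

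The promoters of some members carry the letters by which Hsf1 and the unfolded protein response act, and they are shown for some of the genes the results turn on. RefSeq promoter windows (rat build GRCr8, 250 bases before to 50 after the start site) were at hand for 52 of the 65 members. The 13 members without a window included Hsp90aa1, Dnaja2, Dnajc2 and Dnajc15, so nothing is said of their elements. A heat shock element of 3 alternating units (GAANNTTCNNGAA or TTCNNGAANNTTC, either strand) was found in 5 of these 52 (Dnaja1, Hspa8, Hspd1, Hspe1 and Hsph1), against 0.798% of all 33469 windows. The shorter form of 2 units (GAANNTTC or TTCNNGAA), which is contained in the longer one, was found in 16 of the 52, against 15.9% of all windows. The window of Hspa1a held neither form. The ER stress element (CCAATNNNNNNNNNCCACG) was found in Hspa5, Hsp90b1 and Dnajc3, against 0.0657% of all windows. A match is a description of the letters and not evidence of binding. The windows of Hspd1 and Hspe1 overlap on opposite strands and share their element, so 1 sequence is shown for both. In the sequences that follow, each 5′ to 3′ on the gene's strand and ending at the base before the start site, the element is in capitals: the 3-unit heat shock element in Hsph1, Dnaja1, Hspe1 and Hspa8, the ER stress element in Hspa5 and Hsp90b1, and the 2-unit form in Hspb1, whose window holds no 3-unit element. For Dnaja1 the first 30 transcribed bases are included, since its element starts at base 10 of the transcript.
Hsph1, chr12:10427118-10427367, plus strand: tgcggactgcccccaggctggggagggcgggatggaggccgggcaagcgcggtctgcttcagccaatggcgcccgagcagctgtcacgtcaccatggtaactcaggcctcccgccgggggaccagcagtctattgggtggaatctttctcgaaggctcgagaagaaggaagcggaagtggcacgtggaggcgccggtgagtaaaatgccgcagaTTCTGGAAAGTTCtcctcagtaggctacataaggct
Dnaja1, chr5:60638154-60638433, plus strand: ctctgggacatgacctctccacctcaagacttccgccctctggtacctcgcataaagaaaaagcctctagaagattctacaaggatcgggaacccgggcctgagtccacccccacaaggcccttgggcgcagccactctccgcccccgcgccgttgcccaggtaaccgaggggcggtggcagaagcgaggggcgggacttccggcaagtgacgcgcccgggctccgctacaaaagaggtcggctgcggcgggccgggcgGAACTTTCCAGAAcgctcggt
Hspe1, chr9:64084077-64084326, plus strand: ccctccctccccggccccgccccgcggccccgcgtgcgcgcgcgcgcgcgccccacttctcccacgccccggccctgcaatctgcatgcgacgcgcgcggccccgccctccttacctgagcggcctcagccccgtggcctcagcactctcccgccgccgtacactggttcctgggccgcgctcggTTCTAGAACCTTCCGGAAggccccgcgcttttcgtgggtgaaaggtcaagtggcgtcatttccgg
Hspa8, chr8:50080264-50080513, plus strand: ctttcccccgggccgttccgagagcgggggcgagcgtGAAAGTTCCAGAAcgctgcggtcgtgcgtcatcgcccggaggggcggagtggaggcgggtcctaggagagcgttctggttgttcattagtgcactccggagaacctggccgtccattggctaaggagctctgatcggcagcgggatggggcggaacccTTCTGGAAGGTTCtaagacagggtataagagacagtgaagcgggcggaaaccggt
Hspa5, chr3:38452766-38453015, plus strand: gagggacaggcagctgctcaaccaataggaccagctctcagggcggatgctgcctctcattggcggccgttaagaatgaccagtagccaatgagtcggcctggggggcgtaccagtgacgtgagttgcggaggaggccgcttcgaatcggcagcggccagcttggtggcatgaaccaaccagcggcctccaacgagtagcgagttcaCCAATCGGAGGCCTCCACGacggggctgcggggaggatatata
Hsp90b1, chr7:23012294-23012543, minus strand: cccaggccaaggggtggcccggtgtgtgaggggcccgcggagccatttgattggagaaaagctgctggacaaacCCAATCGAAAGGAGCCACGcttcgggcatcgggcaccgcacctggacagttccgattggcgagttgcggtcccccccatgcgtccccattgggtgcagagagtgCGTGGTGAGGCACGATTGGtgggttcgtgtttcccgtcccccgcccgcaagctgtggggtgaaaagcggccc
Hspb1, chr12:26432302-26432551, minus strand: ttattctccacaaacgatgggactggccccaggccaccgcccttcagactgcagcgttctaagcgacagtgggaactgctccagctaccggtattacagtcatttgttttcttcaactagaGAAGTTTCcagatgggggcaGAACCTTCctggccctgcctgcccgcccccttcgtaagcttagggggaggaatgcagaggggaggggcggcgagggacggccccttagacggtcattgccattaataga

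Of the 65 members, 57 passed the filter on dim probes (5 or more of the 24 arrays with a Cy3, or sample, signal clearly over background) and were tested. By family these were 12 of 14 in HSP70 and HSP110, 3 of 3 in HSP90, 2 of 2 in the mitochondrial chaperonin, 6 of 7 small heat shock proteins, 4 of 4 in Dnaja, 10 of 12 in Dnajb and 20 of 23 in Dnajc. The 8 that did not pass were Hspa1b, Hspa1l, Hspb2, Dnajb7, Dnajb13, Dnajc16, Dnajc27 and Dnajc5g, whose probes were above background on at most 4 arrays, so nothing is said of their change. Where a gene had several kept probes (20 genes), the brightest one stood for it. The members differed widely in how much they varied. Across the 20 samples Hspa1a, the stress-inducible HSP70, ranged from -2.17 to 2.09 and Hspb1 (HSP27, a small heat shock protein) from -2.28 to 1.83, whereas Dnajc30 stayed within -0.08 to 0.23.

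**Figure D1:**
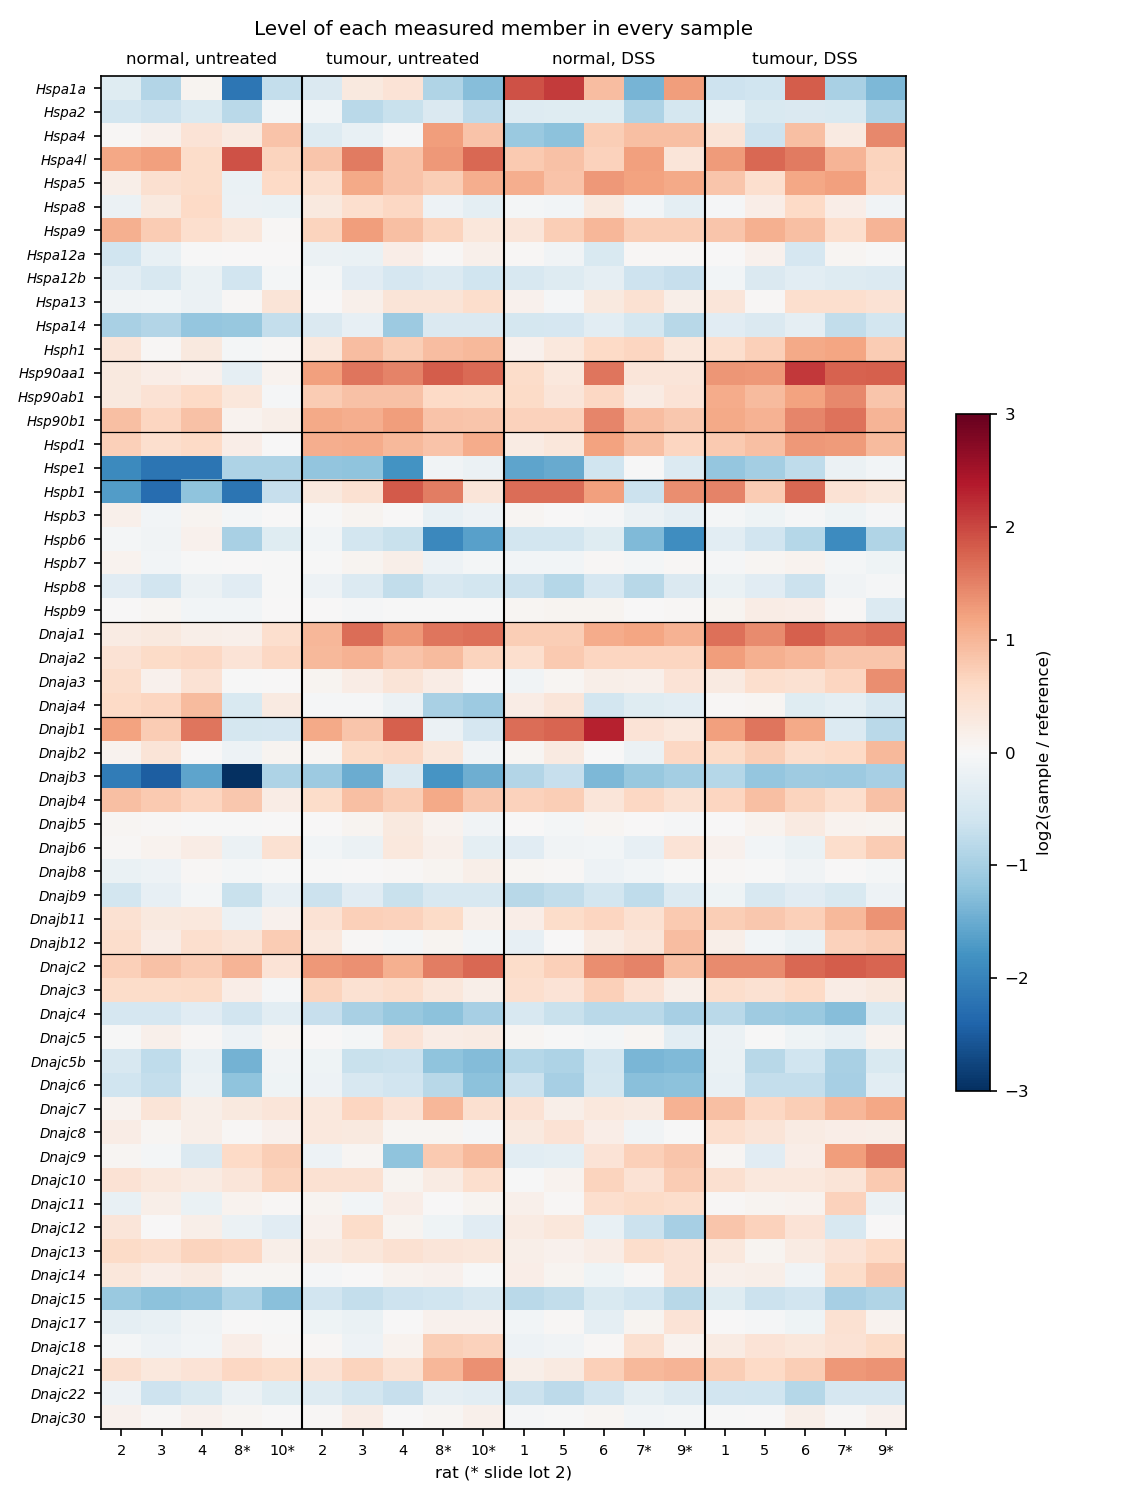
Level of each of the 57 measured members (rows, by family) in each of the 20 samples (columns, by group and rat), as log2 of sample over reference on a colour scale from -3 to 3. Hsp90aa1 and Dnaja1 are red in all 10 tumours, Hspb1 is blue in normal colon of untreated rats, and Dnajb1 and Hspe1 differ between slide lots (an asterisk marks lot 2).

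In tumours of untreated rats Hspb1, both cytosolic HSP90 genes, the DnaJ proteins Dnaja1 and Dnaja2, and Hsph1 rose against the normal colon of the same rats, while Dnaja4 fell and other cytosolic members such as Hspa8, Hspa1a and Dnajb1 did not pass the test. In limma's moderated test, adjusted by Benjamini-Hochberg over all 26280 features with a threshold of 0.05, 11 of the 57 members (19.3%) were higher in tumour and 2 (3.51%) were lower. Over all features 8.58% were higher and 9.41% lower, so the share of members that rose was above the background and the share that fell below it. The members' median change was 0.11 against -0.00172 over all features. The 2 groups did not overlap for 8 members (14%, against 12.4% of all features). The genes called higher were Dnaja1, Hsp90aa1, Hspb1, Dnajc15, Hsph1, Dnaja2, Dnajc2, Hspd1, Hsp90ab1, Hspa5 and Hspa14, and those called lower were Dnajc4 and Dnaja4. None of the 10 Dnajb genes was called, with a median change of 0.12.

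**Figure D2:**
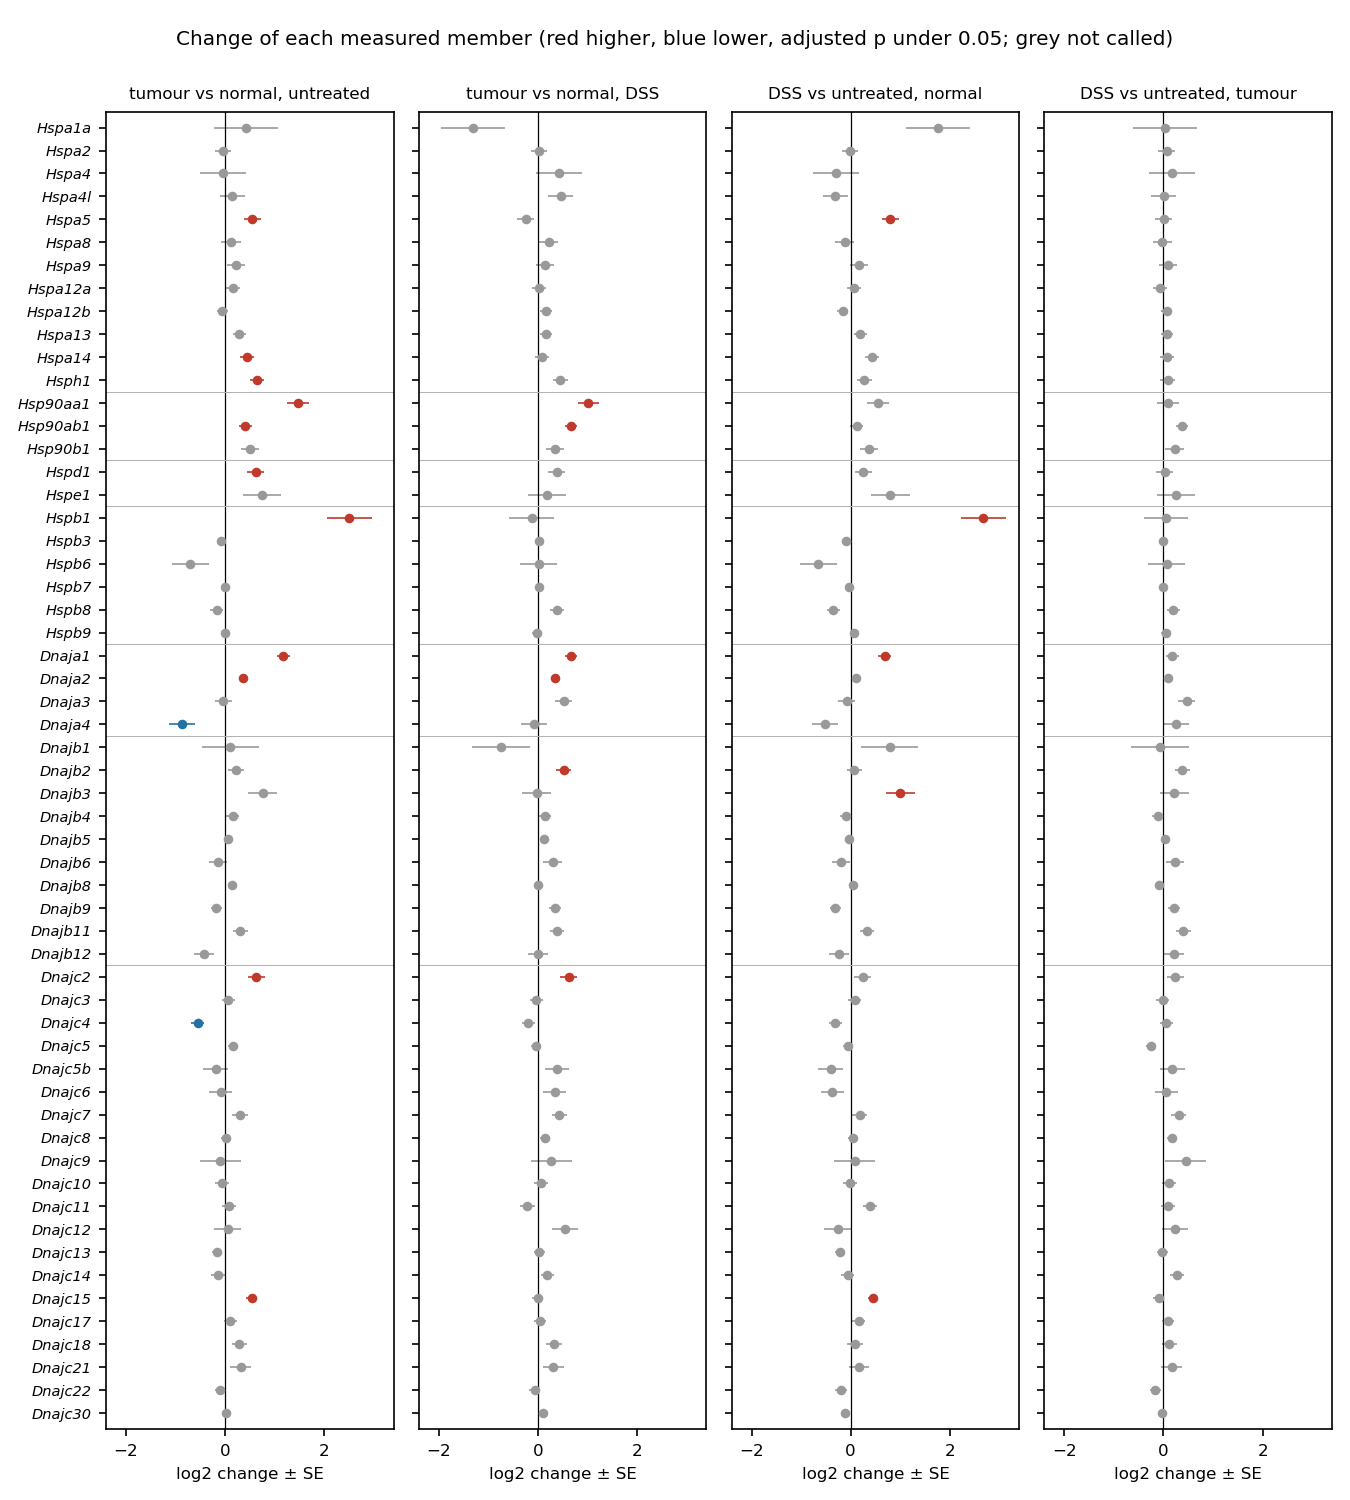
Log2 change with its standard error (x axis) of each of the 57 measured members (rows, by family) in 4 comparisons of 5 rats against 5. Points in red or blue had an adjusted p under 0.05 in limma's test over all 26280 features: 11 higher and 2 lower in tumours of untreated rats, 6 higher in tumours of DSS rats, 5 higher in normal colon of DSS rats and 0 between the tumours.

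Hspb1, which shields unfolding proteins and actin filaments, had the largest change. In normal colon of untreated rats it stood at -1.66, -2.28, -1.20, -2.19 and -0.69 in rats 2, 3, 4, 8 and 10, and in their tumours at 0.29, 0.46, 1.83, 1.54 and 0.37. All 5 normal samples lay below the pool and all 5 tumours above it, with no overlap. The change was 2.50 ± 0.45 (SE, n = 5 rats per group; a 5.67-fold difference, limma adjusted p = 0.000871), and it was positive in each rat, from 1.06 to 3.74.

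The HSP90 family rose in its cytosolic members. Hsp90aa1, the stress-inducible form, was at 0.30, 0.20, 0.13, -0.28 and 0.11 in normal colon of rats 2, 3, 4, 8 and 10 and at 1.24, 1.60, 1.48, 1.81 and 1.71 in their tumours. Every tumour was above every normal sample, and the change was 1.48 ± 0.22 (2.78-fold, limma adjusted p = 0.000162). Its other 3 kept probes gave 1.504 to 1.766. Hsp90ab1, the form made in all cells, went from 0.28, 0.43, 0.60, 0.35 and -0.04 to 0.76, 0.88, 0.88, 0.60 and 0.57. The groups overlapped through rat 4's normal colon, all 5 rats had the higher value in tumour, and the change was 0.41 ± 0.12 (limma adjusted p = 0.0265). Its sample signal was saturated on 1 array, and the other kept probes, with no saturated signal, gave 1.026 (adjusted p = 0.0434 over all 30463 kept probes) and 0.5631 (adjusted p = 0.0165), so the size depends on the probe. Hsp90b1, the HSP90 of the ER, was higher in tumour in 5 of 5 rats by 0.50 ± 0.18 without passing the test (limma adjusted p = 0.0692); it passed with rat as a block (adjusted p = 0.00594).

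Among DnaJ proteins, Dnaja1, a partner of cytosolic HSP70, had the smallest p of all members. Its normal samples were at 0.25, 0.30, 0.17, 0.14 and 0.51 and its tumours at 0.996, 1.68, 1.30, 1.61 and 1.66 in rats 2, 3, 4, 8 and 10. The 2 groups lay well apart, and the change was 1.17 ± 0.13 (2.25-fold, limma adjusted p = 1.03e-05). Dnaja2, of the same class, rose by 0.36 ± 0.09 (limma adjusted p = 0.0078) in 5 of 5 rats. Dnajc2, which sits on the ribosome together with Hspa14, rose by 0.63 ± 0.17 (limma adjusted p = 0.0155), and Hspa14 itself by 0.45 ± 0.14 (limma adjusted p = 0.0341), each in 5 of 5 rats. Dnajc15, a protein of the inner mitochondrial membrane, was below the pool in every sample and rose by 0.54 ± 0.11 (limma adjusted p = 0.00188) with no overlap between the groups.

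A pair of DnaJ genes fell. Dnaja4 was at 0.59, 0.64, 0.95, -0.46 and 0.27 in normal colon of rats 2, 3, 4, 8 and 10 and at -0.04, -0.04, -0.16, -0.97 and -1.10 in tumour. It was lower in tumour in all 5 rats although the groups overlapped through rat 8, and the change was -0.86 ± 0.26 (limma adjusted p = 0.0295). Dnajc4 was at -0.50, -0.51, -0.34, -0.57 and -0.32 in normal colon and at -0.69, -0.97, -1.14, -1.23 and -0.98 in tumour. These groups did not overlap, and the change was -0.55 ± 0.14 (limma adjusted p = 0.00803).

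Of the 12 measured HSP70 and HSP110 genes, 3 rose (Hsph1, Hspa5 and Hspa14) and 0 fell. Hsph1, the nucleotide exchange factor, was at 0.36, 0.04, 0.29, -0.06 and 0.02 in normal colon and at 0.32, 0.93, 0.74, 0.92 and 0.97 in tumour. It rose in 4 of 5 rats, rat 2 differing by -0.05, and the change was 0.64 ± 0.15 (limma adjusted p = 0.00556). Hspa5, the HSP70 of the ER, went from 0.17, 0.49, 0.55, -0.21 and 0.60 to 0.51, 1.14, 0.86, 0.75 and 1.09. It was higher in tumour in all 5 rats, by 0.55 ± 0.17 (limma adjusted p = 0.0294). Hspa8, the HSP70 present in all cells, changed by 0.12 ± 0.19 (95% interval -0.29 to 0.53, limma adjusted p = 0.772), with a saturated sample signal on 2 arrays, while its other 3 probes, with none saturated, gave 0.09 to 0.34 and did not pass. Hspa1a changed by 0.42 ± 0.65 (limma adjusted p = 0.759), a value with an interval of -0.94 to 1.78.

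Of the mitochondrial cage, 1 of the 2 genes passed. Hspd1 (HSP60) stood at 0.72, 0.51, 0.59, 0.19 and 0.02 in normal colon and at 1.10, 1.10, 0.97, 0.85 and 1.10 in tumour, with no overlap, a rise of 0.62 ± 0.17 (limma adjusted p = 0.0162). Hspe1 (HSP10) stood at -1.91, -2.20, -2.20, -0.93 and -0.93 in normal colon and at -1.18, -1.20, -1.79, -0.12 and -0.19 in tumour. Its samples separated by slide lot first and by tissue within each lot: the tumour was higher in all 5 rats, by 0.41 to 0.99. The change of 0.74 ± 0.38 did not pass (limma adjusted p = 0.218), and it passed with rat as a block (adjusted p = 0.00108) or lot as a block (adjusted p = 0.00349). Its reference signal was saturated on 8 of the 24 arrays, so its level is a bound there.

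Since both tissues came from the same rats, the fit was repeated with rat as a block. It called 20 of the 57 members (24.8% of all features), among them all 13 of the first fit plus Hsp90b1, Hspa13, Hspe1, Dnajb3, Dnajc7 (higher), Hspb6 and Dnajb12 (lower). With lot as a block 18 were called (25.1% of all features). Hspb6, a small heat shock protein rich in smooth muscle, changed by -0.70 ± 0.37 (limma adjusted p = 0.229, and 0.0414 with the rat block), beside smooth muscle markers that averaged -2.03 to -0.91 in normal colon and -1.87 to -0.73 in tumour. The part of muscle content in this value was not tested. Calls of 6 members (Dnaja1, Hsp90aa1, Hspb1, Dnajc15, Hsph1 and Dnajc4) held whichever rat was left out, whereas Dnaja2 lost its call without rat 8, Dnajc2 without rat 10, Hspd1 without rat 3, 8 or 10, Hsp90ab1 without rat 2, 3, 8 or 10, Hspa5 without rat 3, 4, 8 or 10, Dnaja4 without rat 3, 4 or 10 and Hspa14 without rat 2, 3, 5, 8 or 10. Rat 5 is a DSS rat with no sample in this comparison, so leaving it out altered only the shared estimate of spread and the adjustment. Without rat 3, 8 or 10 the count higher fell to 7, 6 and 7. With median centring of each array in place of loess only Hspb1 was called, at 2.43 (limma adjusted p = 0.0392), and no other member was called. Slide as a block ended the calls of Hsp90ab1, Hspa14, Hspa5 and Hspd1, and processed signals those of Dnaja2, Hsp90ab1 and Hspa14.

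**Figure D3:**
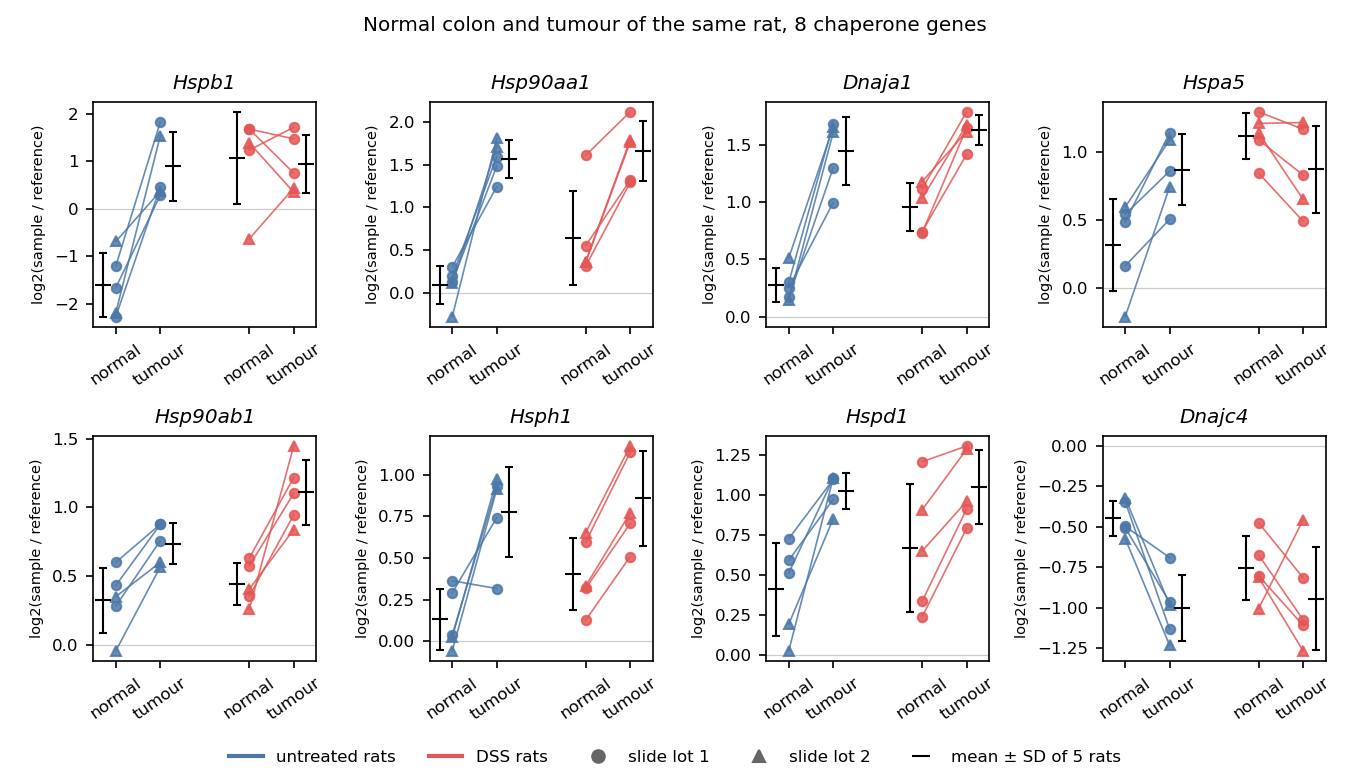
Log2 of sample over reference (y axis) in normal colon and tumour of the same rat, joined by a line, for 8 members; blue lines are untreated and red lines DSS rats, circles slide lot 1 and triangles lot 2, and bars give the mean and SD of 5 rats. Hsp90aa1 and Dnaja1 rise in all 10 rats, while Hspb1 rises in all 5 untreated rats and starts above all untreated rats in the normal colon of all 5 DSS rats.

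In DSS rats the tumours again had more cytosolic HSP90 and Dnaja1 than normal colon, and Hspb1 and Hspa5 were not higher. Of the 57 members 6 were higher (10.5%, against 3.73% of all features) and 0 were lower: Hsp90ab1, Dnaja1, Hsp90aa1, Dnaja2, Dnajc2 and Dnajb2. The median change was 0.15, against 0.02 over all features. The groups did not overlap for 3 members (5.26%, against 7.73% of all features). This comparison and the one in untreated rats use different rats, but the comparisons of DSS with untreated tissue share their samples with both.

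Hsp90aa1 was at 0.55, 0.31, 1.61, 0.36 and 0.36 in normal colon of DSS rats 1, 5, 6, 7 and 9 and at 1.32, 1.29, 2.12, 1.76 and 1.80 in their tumours. The normal colon of rat 6 stood above 2 of the tumours, every rat had more in its tumour, and the change was 1.02 ± 0.22 (2.03-fold, limma adjusted p = 0.00632). Dnaja1 was at 0.73, 0.74, 1.12, 1.18 and 1.03 in normal colon and 1.65, 1.42, 1.79, 1.62 and 1.68 in tumour. The groups did not overlap, and the change of 0.67 ± 0.13 (limma adjusted p = 0.00294) began from a higher normal level than in untreated rats. Hsp90ab1 went from 0.57, 0.35, 0.63, 0.26 and 0.40 to 1.10, 0.95, 1.22, 1.45 and 0.84. No tumour was as low as any normal sample, a change of 0.67 ± 0.12 (limma adjusted p = 0.00231). Other kept probes of Hsp90ab1 gave 0.5341 (limma adjusted p = 0.0428 over all 30463 kept probes) and 0.6729, which did not pass (adjusted p = 0.288). Those of Hsp90aa1 gave 1.309 and 1.015, which passed, and 0.8381, which did not (adjusted p = 0.168).

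Dnajc2 went from 0.56, 0.71, 1.39, 1.49 and 0.89 to 1.42, 1.42, 1.73, 1.81 and 1.76 in rats 1, 5, 6, 7 and 9. It was higher in tumour in every rat, with overlap through rat 7, by 0.62 ± 0.17 (limma adjusted p = 0.0319). Dnaja2 rose by 0.35 ± 0.09 (limma adjusted p = 0.0183) in 5 of 5 rats and Dnajb2, a DnaJ protein with ubiquitin-binding motifs, by 0.52 ± 0.16 (limma adjusted p = 0.0495) in 5 of 5. Hspb1 was no higher in these tumours: it stood at 1.48, 0.76, 1.72, 0.44 and 0.35, and the change from normal colon was -0.12 ± 0.45 (95% interval -1.07 to 0.82, limma adjusted p = 0.921). Hspa5 changed by -0.24 ± 0.17 (limma adjusted p = 0.468).

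With rat as a block, 12 members were called (12.4% of all features), 11 higher and 1 lower. The additions included Hspd1 (0.38, adjusted p = 0.0399), Hsph1 (0.45, adjusted p = 0.0471) and Dnaja3, the mitochondrial DnaJ protein (0.52, adjusted p = 0.0147). The gene that was lower was Dnajb1 (HSP40), the usual partner of inducible HSP70. It was at 1.68, 1.74, 2.32, 0.40 and 0.32 in normal colon and at 1.22, 1.60, 1.15, -0.41 and -0.82 in tumour. All 5 rats were lower in tumour, by 0.14 to 1.17, and rats 7 and 9 of lot 2 were far below the others in both tissues. The change was -0.75 ± 0.58 without a block (limma adjusted p = 0.524) and had an adjusted p of 0.00645 with rat and 0.0126 with lot as a block (10 members and 12.2% of all features called with lot). A second, dimmer probe of Dnajb1 gave a smaller change without a block, -0.31 (limma adjusted p = 0.713 over all 30463 kept probes). Calls held without any 1 rat for Hsp90ab1, Dnaja1 and Hsp90aa1. They were lost without rat 1 or 6 for Dnaja2, without rat 1, 3, 5 or 9 for Dnajc2, and without rat 1, 2, 4, 5, 6, 7 or 8 for Dnajb2. Without rat 1 the count fell to 3. Rats 2, 3, 4 and 8 are untreated and hold no sample of this comparison. Leaving them out altered only the shared estimate of spread and the adjustment, and the Dnajb2 change stayed at 0.5206 without rat 2, 4 or 8. With median centring 0 of the 6 were called, and Dnajc18 and Hspb8 were called instead. Processed signals ended the calls of Dnaja2, Dnajb2 and Dnajc2, and slide as a block that of Dnajb2.

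Normal colon of rats that had drunk DSS contained more Hspb1, Hspa5 and Dnaja1 than untreated normal colon. Of the 57 members 5 were higher (8.77%, against 3.92% of all features) and 0 were lower: Hspb1, Dnaja1, Hspa5, Dnajc15 and Dnajb3. The median change was 0.07, against -0.01 over all features. The groups did not overlap for 5 members (8.77%, against 8.63% of all features), a share near the background.

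Hspb1 was at 1.68, 1.68, 1.24, -0.64 and 1.39 in normal colon of DSS rats 1, 5, 6, 7 and 9, against -1.66, -2.28, -1.20, -2.19 and -0.69 in that of untreated rats 2, 3, 4, 8 and 10. Rat 7 stood far below the other 4 DSS rats yet just above all untreated rats, so the groups did not overlap. The difference was 2.68 ± 0.45 (6.4-fold, limma adjusted p = 0.00113). It was 3.25 in lot 1 alone (adjusted p = 0.000969) and 1.82 in lot 2 alone (adjusted p = 0.434, 2 rats per group). The squamous marker list was also higher in this comparison (2.78 to 4.39 in DSS and -0.20 to 1.81 in untreated rats). Between single rats the order differed: rat 7, with the lowest Hspb1 of the DSS rats, had a squamous average of 3.07, and untreated rat 8, with a squamous average of 1.81, had Hspb1 at -2.19. The part of squamous cells in the Hspb1 difference was not tested. In tumours, whose squamous average was 0.01 to 0.53, Hspb1 was at 0.29 to 1.83.

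**Figure D4:**
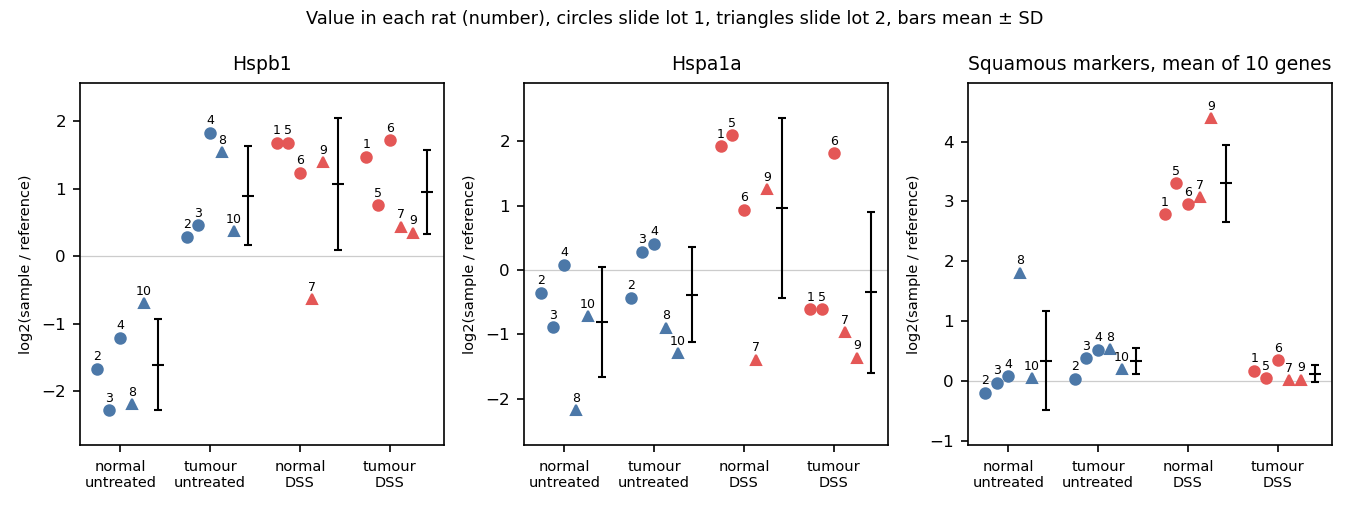
Values (log2 of sample over reference, y axis) of Hspb1, of Hspa1a and of the mean of 10 squamous marker genes in each rat, numbered, in the 4 groups; circles are slide lot 1, triangles lot 2 and bars the mean and SD of 5 rats. Rat 7 of the DSS group has low Hspb1 and Hspa1a in normal colon beside a squamous mean of 3.07.

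Hspa5 was at 1.09, 0.85, 1.30, 1.21 and 1.14 in normal colon of rats 1, 5, 6, 7 and 9, against 0.17, 0.49, 0.55, -0.21 and 0.60 in untreated rats. Every DSS sample was above every untreated one, and the difference was 0.80 ± 0.17 (1.74-fold, limma adjusted p = 0.00704). Dnaja1 was 0.68 ± 0.13 higher (limma adjusted p = 0.00269) and Dnajc15 0.45 ± 0.11 higher (limma adjusted p = 0.0155), each with groups that did not overlap. Dnajb3, a class B DnaJ protein, was at -0.87, -0.70, -1.35, -1.13 and -1.02 against -2.10, -2.47, -1.59, -2.98 and -0.93 in untreated rats. Rat 10 was the untreated sample within the range of the DSS rats, and the difference of 0.9999 ± 0.29 was close to the threshold (limma adjusted p = 0.0464). Hsp90aa1 was not called on its brightest probe, at 0.5474 (limma adjusted p = 0.152 over all 30463 kept probes). Its other kept probes gave 0.6447, 0.6849 and 0.7549, of which the last passed (adjusted p = 0.037), so its call depends on the probe.

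Inducible HSP70 and its partner were uneven between rats. Hspa1a was at 1.92, 2.09, 0.94, -1.39 and 1.25 in normal colon of DSS rats 1, 5, 6, 7 and 9, against -0.35, -0.88, 0.09, -2.17 and -0.71 in untreated rats 2, 3, 4, 8 and 10. Within each lot the DSS rats were above the untreated ones apart from rat 7, which was below rat 10, and the difference of 1.77 ± 0.65 did not pass (limma adjusted p = 0.114). It passed with lot as a block (adjusted p = 0.0245), a fit that called 9 members (13.2% of all features), the additions being Hspa1a, Dnajb1 (0.78, adjusted p = 0.00964), Hspe1 (0.80, adjusted p = 0.00433) and, in the lower direction, Hspb6 (-0.66, adjusted p = 0.0334). A second, dimmer probe of Hspa1a gave 0.69 (adjusted p = 0.0912 over all 30463 kept probes). Hspa1a and Hspa1b are near-identical genes, and an array probe may not separate them. Immediate early genes, which are switched on quickly when tissue is handled, averaged 0.81, 0.77, 0.47, -0.53 and 0.27 in the same DSS rats and 0.53, -0.70, 0.90, -0.45 and 0.05 in the untreated ones, so rat 7 was the lowest of the DSS rats in both, though untreated rats went lower in each, and their part in the Hspa1a values was not tested. Calls of Hspb1, Dnaja1 and Hspa5 held without any 1 rat, Dnajc15 lost its call without rat 3 and Dnajb3 kept it only without rat 4 or rat 10; without rat 3 the count fell to 3. With median centring 0 of the 5 were called, Hspb1 being at 2.45 (limma adjusted p = 0.067).

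Between tumours of DSS and untreated rats the chaperones did not differ past the threshold. Of the 57 members 0 were called by limma, as was true of 0% of the 26280 features. At an unadjusted p under 0.05 there were 5 of the 57 members, a share near the 6.33% of all features. These were Hsp90ab1 (0.37 ± 0.12, 95% interval 0.11 to 0.64), Dnaja3 (0.47 ± 0.17), Dnajb11, an ER partner of Hspa5 (0.40 ± 0.15), Dnajc5 (-0.25 ± 0.10) and Dnajb2 (0.38 ± 0.16), with limma adjusted p from 0.512 to 0.674. Dnajb11 was the 1 member whose groups did not overlap (0.814% of all features had such groups). It was at 0.75, 0.81, 0.72, 0.96 and 1.35 in tumours of DSS rats and 0.43, 0.71, 0.70, 0.58 and 0.16 in those of untreated rats. Hspb1 differed by 0.05 ± 0.45 between the tumours, with a 95% interval of -0.90 to 0.999.

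The difference between the tumour changes of DSS and untreated rats was tested directly. The tumour change of Hspb1 was -0.12 in DSS rats and 2.50 in untreated rats, a difference of -2.63 ± 0.64 (95% interval -3.97 to -1.29, limma adjusted p = 0.0339). It was the 1 member called lower (1.75%, against 1.7% of all features, a share at the background), and 0 members were called higher. Next by p were Dnajc15 (-0.54 ± 0.15, limma adjusted p = 0.0654) and Hspa5 (-0.80 ± 0.24, limma adjusted p = 0.0908), neither of which passed, and then Dnajb9 (0.52 ± 0.16, limma adjusted p = 0.106) and Hspb8 (0.56 ± 0.19, limma adjusted p = 0.133). With rat as a block 4 members were called (5.66% of all features): Hspb1, Hspa5 (adjusted p = 0.0138), Dnajb1 (-0.85, adjusted p = 0.0336) and, in the higher direction, Dnaja4 (0.78, adjusted p = 0.0313). The second probe of Dnajb1 gave -0.32 without a block (limma adjusted p = 0.837 over all 30463 kept probes). With lot as a block Dnajc15 joined Hspb1 (adjusted p = 0.0435, 5.22% of all features called). The Hspb1 call was lost without rat 1, 3, 4, 5, 8 or 9, with adjusted p up to 0.125, without the 3 arrays that stood apart (-2.69, adjusted p = 0.0791) and with median centring (-1.88, adjusted p = 0.33).

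Some members separated by slide lot more than by tissue or treatment. Dnajb1 in lot 1 was at 0.76 to 2.32 in all 4 groups and in lot 2 at -0.82 to 0.40, and Hspa1a and Dnajb1 were the 2 members for which the lots differed by over 1 in every group. All comparisons hold both lots in the same proportion.

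Other genes of the folding system gave the following counts, to be read beside the shares of all features. In untreated tumours 8.58% of all features were higher and 9.41% lower, and in DSS tumours 3.73% were higher. In normal colon of DSS rats 3.92% were higher, and 872 of 26280 were lower. Counts of 1 to 3 in a short list are small numbers, and they were not tested against such shares. Of 27 measured cochaperones of HSP70 and HSP90, 9 were higher and 0 lower in tumours of untreated rats, and 5 were higher in tumours of DSS rats. Chordc1, an HSP90 cochaperone, rose by 1.11 ± 0.15 (limma adjusted p = 6.22e-05) and 0.70 ± 0.15 (limma adjusted p = 0.00498), and Ppid, a cyclophilin that docks on HSP90, by 1.41 ± 0.22 (limma adjusted p = 0.000209) and 1.29 ± 0.22 (limma adjusted p = 0.00096). Bag2, which opposes ubiquitination of HSP70 clients, had the pattern of Hspb1. It was 1.51 ± 0.33 higher in untreated tumours (limma adjusted p = 0.00366) and 1.95 ± 0.33 higher in normal colon of DSS rats (limma adjusted p = 0.00112), and its tumour change differed between the treatments by -1.89 ± 0.47 (limma adjusted p = 0.0365).

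The cytosolic chaperonin TRiC, which folds actin and tubulin, had 7 of 12 measured genes of the TRiC and prefoldin list higher in untreated tumours (Cct6a by 1.22 ± 0.20, limma adjusted p = 0.000386, and Cct2 by 0.52 ± 0.09, limma adjusted p = 0.000454) and 4 of 12 higher in DSS tumours. None fell in either comparison, and in normal colon of DSS rats 1 of 12 was higher (Cct6a, 0.71 ± 0.20, limma adjusted p = 0.0371). The 12 mitochondrial chaperones and proteases went both ways, with 4 higher and 2 lower in untreated tumours, including the protease Yme1l1 (0.66 ± 0.13, limma adjusted p = 0.00177) and the unfoldase Clpx (-0.53 ± 0.11, limma adjusted p = 0.00299).

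The other genes of ER folding did not move as 1 group with Hspa5. Of 30 measured genes of ER foldases and the unfolded protein response, 4 were higher and 6 lower in untreated tumours, and 2 were higher and 3 lower in normal colon of DSS rats. Ero1a, the oxidase that drives disulfide formation, rose by 1.89 ± 0.27 in untreated tumours (limma adjusted p = 0.000122). In normal colon of DSS rats the pseudokinase Trib3 was 0.85 ± 0.18 higher (limma adjusted p = 0.00798) and Ern1, the ER stress sensor IRE1, was lower by -0.71 ± 0.16 (limma adjusted p = 0.00982). Dnajc3, a member that also belongs to that list and whose window holds the ER stress element, was not called in either comparison, whereas Hspa5 was called in both. Of the 5 measured heat shock factors and regulators, 1 was called in untreated tumours (Hikeshi, a nuclear import carrier of HSP70, 0.45 ± 0.13, limma adjusted p = 0.0177) and 0 in the other comparisons.

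The members with a 3-unit heat shock element did not all move alike. In untreated tumours Dnaja1, Hsph1 and Hspd1 were called higher, Hspe1 was called with the rat or lot block, and Hspa8 was not called in any comparison. Hsp90b1 and Hspa5, both with the ER stress element, changed by 0.50 and 0.55 in untreated tumours and by 0.38 ± 0.18 (limma adjusted p = 0.246) and 0.80 in normal colon of DSS rats.

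Several well-known members did not pass the test in any comparison without a block. Hspa8 was measured at -0.30 to 0.62 across the 20 samples, a bound where its signal was saturated, and its groups overlapped. Hspa9, the HSP70 of mitochondria, averaged 0.54 ± 0.39 (SD, n = 5) in normal colon and 0.77 ± 0.33 in tumours of untreated rats, and 0.71 ± 0.23 and 0.87 ± 0.22 in those of DSS rats. Hspa4, a relative of Hsph1, varied so widely within groups on its brightest probe (SD 0.32 to 1.11) that its tumour change in untreated rats, -0.04 ± 0.46, sets little limit. On that probe lot 2 averaged above lot 1 in every group, by 0.37 to 1.43. A second, dimmer probe of Hspa4 varied less: for DSS in normal colon it gave 0.12 ± 0.25, against -0.30 ± 0.46 on the brightest. Dnajb9, an ER DnaJ protein, averaged -0.35 ± 0.25 in untreated and -0.66 ± 0.17 in DSS normal colon, and -0.52 ± 0.13 and -0.31 ± 0.17 in the tumours, so its order of tissues was opposite in the 2 treatments. Hspb8, a small heat shock protein that works with Bag3, had the same order, at -0.29 ± 0.21, -0.65 ± 0.19, -0.46 ± 0.22 and -0.26 ± 0.24. Neither passed the test of that difference, given above. For Hspb8 it did pass with median centring (0.89, adjusted p = 0.034), with processed signals (1.849, adjusted p = 0.00368) and with slide as a block (0.74, adjusted p = 0.0275), and with slide as a block both genes were called higher in DSS tumours (Hspb8 by 0.44, adjusted p = 0.0232, and Dnajb9 by 0.37, adjusted p = 0.0346).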

How the data were processed

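RNA of 20 tissue samples was measured on 24 two-colour Agilent arrays, the sample in Cy3 and the reference pool in Cy5, with no dye swap; 4 samples had a second array. The deposited values are scanner intensity values per spot; the file headers name version 9.1.3.1 of Feature Extraction, and depth is not defined for arrays, whose number limits the precision. Partek is also named in the submitters' processing notes. Mean and background intensities were corrected by normexp (offset 50) and loess in limma 3.58.1 (R 4.3.3), spots of a probe were averaged, repeat arrays of a sample were merged by their mean, and control spots were left out. A probe was kept if well above background on at least 5 of 24 arrays, and the brightest kept probe stood for a gene. A limma fit of the 4 group means covered 26280 features, with Benjamini-Hochberg adjustment and a threshold of 0.05; it was tested on simulated data. Each group held 5 rats.

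Normal colon and tumour came from the same animal, so rat numbers pair the samples; deviations from the group means correlated within a rat at 0.0802 to 0.566. The fit with rat as a block is an alternative. For DSS against untreated tissue, where no pairs within a rat exist, it only allowed for a shared correlation of samples from 1 rat (0.271). Lots were read from the slide identifiers. Named genes were well-known members, the largest called changes of each comparison (or the smallest p where few passed), and up to 4 called genes per pathway list. Members, gene lists and rules were chosen with earlier results of these data known. The sources do not say how many tumours a sample held.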

Additional observations from a re-analysis of the deposited data

Results flagged for a closer look

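Single rats stood apart in 4 of the 140 groups tested (35 members in 4 groups of 5 rats), where chance alone gives about 1 in 20. Hspb1 in normal colon of DSS rat 7 was at -0.636, far below the other 4 rats. Hsp90aa1 in normal colon of DSS rat 6 was at 1.61, above the other 4. Hspa1a in the tumour of DSS rat 6 was at 1.818, above the other 4, and the arrays of that sample, which was measured on a pair of arrays, differed by 1.92 for this gene. Hspa14 in the tumour of untreated rat 4 was at -1.097, below the other 4. The change of Hspb1 from normal colon to tumour differed between the treatments, by -2.629 in the interaction test of limma (adjusted p = 0.0339).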

How the results depend on the processing

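Of 3103 recomputed member changes, 2937 kept their side of the threshold, 121 lost and 45 gained a call, and 0 called ones changed sign. Changes that were not called did turn sign in some settings, for example that of Hspa8 between tumours in 10 of 21. For untreated tumours the 11 members higher became 1 with median centring, 7 in lot 1 alone, 5 in lot 2 alone and 6 to 12 without 1 rat; the 2 lower became 0 with median centring and in lot 2 alone, 4 with the rat block and with the slide block, 1 without the arrays that stood apart and 1 to 2 without 1 rat. For DSS tumours the 6 higher became 2 with median centring, 11 with the rat block, 1 in lot 2 alone and 3 to 6 without 1 rat, and the 0 lower became 1 with the rat or lot block and 2 with the slide block. For DSS in normal colon the 5 higher became 0 with median centring and in lot 2 alone, 8 with the lot or slide block and 3 to 5 without 1 rat, and the 0 lower became 1 with processed signals, the lot block or lot 1 alone and 2 with the slide block. For the difference of tumour changes the 0 higher became 1 with median centring, processed signals, the rat block or the slide block, and the 1 lower became 0 with median centring, in lot 2 alone and without the arrays that stood apart, 3 with the rat block, 2 with the lot or slide block and 0 to 1 without 1 rat. Between tumours 0 members were called under every alternative tried. The rat block changed no call of DSS against untreated normal colon. Each rat gave 1 sample to that comparison, so it holds no pairs and the unchanged calls are no check by pairing. Median centring moved the median of all features to 0.25 in DSS tumours and 0.381 in the difference of tumour changes (members 0.671 and 0.687). In untreated tumours the members' median turned from 0.109 to -0.0249, beside -0.0524 over all features. For DSS in normal colon it turned from 0.0656 to -0.143, beside -0.098 over all features. In each of these comparisons 13 members changed sign, so the direction of the members' median there depends on the scaling. The calls of median centring over all features were 352 higher and 551 lower in untreated tumours (2256 and 2472 with loess). They were 390 higher and 258 lower in DSS tumours (981 and 1015), and 296 higher and 68 lower for DSS in normal colon (1030 and 872). The cause of these shifts was not tested. Alternatives within a lot rest on fewer rats.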
